A study of Homo sapiens with 6 samples.

Results

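The 10 genes described here are immediate early transcription factors. EGR1, EGR2 and EGR3 are zinc finger factors, FOS, FOSB and FOSL1 belong to the FOS family, JUN and JUNB belong to the JUN family, ATF3 is a stress-induced bZIP factor, and IER2 is a nuclear regulator. They were chosen by name, 10 of the 27968 genes in the deposited tables, and all 10 were found. Total RNA, freed of ribosomal RNA and made into libraries with a kit that keeps the strand, came from A549 and H23, established human cell lines derived from lung adenocarcinomas. The 3 independent cultures of each line received no treatment and 10% fetal bovine serum, in a medium the labels call RPM1640 for H23 and in DMEM for A549, up to about 80% confluence. Line and medium changed together, so their effects cannot be told apart, and each line stands for 1 tumour only. No stimulus and no time course were part of the design, so the values are levels in cultures left untreated.

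Immediate early genes are transcribed within minutes of a growth factor, serum or stress signal, without new protein synthesis, and their transcripts are short-lived. Many of their promoters are served by the serum response factor SRF with its ETS partners, which bind the CArG box, and by CREB and ATF factors, which bind the cyclic AMP response element. FOS and JUN proteins join through leucine zippers to form the dimeric factor AP-1, and EGR proteins bind GC-rich sites and are held in check by the corepressors NAB1 and NAB2.

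The H23 libraries held 29395795 to 42421642 estimated read counts and the A549 libraries 23399562 to 25348083. The floor that 3 counts set per library lay between 0.0706 and 0.1 CPM for H23 and between 0.12 and 0.129 CPM for A549. CPM here are read counts scaled to library depth by TMM, which serve to compare the lines. TPM also corrects for transcript length and serves to compare genes within a line. RNA genes under 200 bases took up 15.7% to 19.7% of TPM in A549 and 0.112% to 0.242% in H23, which lowers the TPM of other genes in A549. The keratin genes KRT8 and KRT18, which mark simple epithelium, stood at 1490 ± 30.7 and 2140 ± 115 CPM in H23 and at 2190 ± 62.2 and 2250 ± 90.2 CPM in A549. Other epithelial markers differed in both directions, KRT7 and KRT19 from 1.18 ± 0.112 and 4.68 ± 0.633 CPM in H23 up to 3560 ± 48.4 and 61.8 ± 1.91 CPM in A549, and CDH1 and EPCAM from 38.7 ± 8.02 and 6.81 ± 1.46 CPM down to 14.4 ± 1.1 and 3.61 ± 0.444 CPM. The lung lineage factor NKX2-1 was at 0 counts in A549 and the surfactant gene SFTPC was at no more than 2 counts in any library. Of 14 markers of blood, endothelial and stromal cells, 9 stayed under 1 CPM in each library and 4 of these, CD3E, HBB, HBA1 and DCN, had no count at all. Their summed level was 30.0 to 39.5 CPM in H23 and 22.0 to 25.6 CPM in A549; COL1A1 led it in H23, at 22.4 ± 4.22 CPM, and ACTA2 in A549, at 9.72 ± 0.912 CPM. Their part in the results was not tested.

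Most of the immediate early factors were lower in A549, where the EGR genes were at or near 0 and FOS was near 1 CPM. Of the 10, 9 passed the filter on low counts, and 7 of these 9 were higher in H23 and 1, JUN, higher in A549 (edgeR's quasi-likelihood test, adjusted p under 0.05). JUNB did not pass the test and EGR3 was too low to enter it. Over all 15426 tested genes, 77.2% passed, 39.6% as higher in H23 and 37.6% as higher in A549, so a pass alone says little. All 7 were at least 2-fold higher in H23, a mark reached by 25.6% of all tested genes. IER2 fell short of it with the GC trend removed, at a log2 fold of -0.86. EGR2 and FOSB fell short on log2(TPM + 1) with no filter, at -0.53 and -0.97. The median log2 fold of A549 over H23 was -3.01 for the 9 genes and -0.03 over all tested genes. EGR1, EGR2 and FOSB passed the filter through H23 alone and could hardly have failed to differ, so the counts and the median are given as a description. Without H23 replicate 1, 8 of the 9 were higher in H23, against 44.6% of all tested genes, and 1 higher in A549. In the whole RNA of a culture, fewer cells that express a gene and less of its RNA per cell cannot be told apart.

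**Figure D1:**
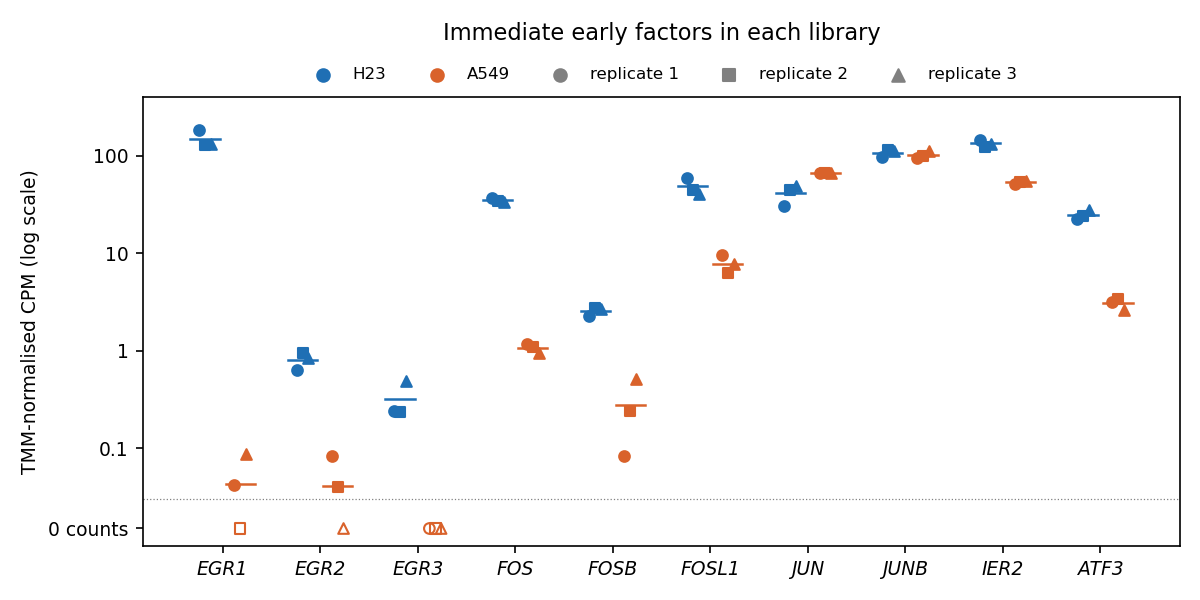
TMM-normalised CPM of each immediate early factor (log axis) in the 3 H23 and 3 A549 libraries. Points are libraries, shaped by replicate, short bars are means, and open points below the dotted line mark libraries with 0 counts; EGR1 falls from 129 to 182 CPM in H23 to at most 0.0862 CPM in A549, while the JUNB points of the lines overlap.

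EGR1 is the prototype of the early growth response family, a factor induced by serum, growth factors and injury. Its libraries held 6895, 3871 and 5665 counts in H23 replicates 1, 2 and 3, and 1, 0 and 2 counts in the A549 libraries. On the CPM scale H23 replicate 1 was highest, at 182, above 129 and 133 in the others, and no A549 library exceeded 0.0862. The H23 level was 3590 times the A549 level (95% counting interval 1230 to 17400), and edgeR gave an adjusted p of 6.93e-07. The interval covers counting error only.

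EGR2, known from Schwann cell myelination and T cell anergy, was much scarcer, with 24, 28 and 36 counts in H23 and 2, 1 and 0 in A549. Its H23 level of 0.806 ± 0.155 CPM was 19.2 times the A549 level (95% counting interval 6.37 to 95, edgeR adjusted p = 0.000414). The lines did not overlap, though the A549 level rests on 3 counts in all. EGR3, needed for muscle spindles and active in lymphocytes, gave 9, 7 and 21 counts in H23 and 0 in each A549 library. Its H23 level of 0.322 ± 0.149 CPM was at least 8.09-fold higher, taken against 3 counts over the A549 libraries. With no filter on low counts EGR3 had an edgeR adjusted p of 0.00365. EGR4, the remaining family member, gave 15, 38 and 32 counts in H23 and 0 in each A549 library, a fold of at least 18.6 in favour of H23, and it too entered the test through H23 alone (edgeR adjusted p = 0.00403). For all 4 EGR genes the H23 libraries lay above the A549 libraries without overlap. Of all tested genes, 82.1% showed no overlap, in one direction or the other. Per length, EGR1 made up 97.8% to 99.2% of the summed TPM of the EGR family in H23, where that sum was 71.6 to 90.9. In A549 the sum was 0.02 to 0.04 TPM, too low to divide.

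The promoters of EGR1 and EGR2 are shown because, among these genes, only their searched sequence held a CArG box, the binding element of SRF. RefSeq promoter windows of 250 bases before an annotated start, on GRCh38.p14, were at hand for 8 of the 10 genes, in 11 windows, since EGR2 and ATF3 have several starts. EGR3 and FOSL1 had none, and no ATF3 window lay before the start of its transcript NM_001674. The deposited tables follow hg19 and hold no coordinates, so these positions belong to the reference only. Both strands were searched, and capitals mark the CArG boxes. EGR1 is shown for chr5:138465329-138465478, plus strand, which ends at the base before the start, and EGR2 for chr10:62816367-62816476, minus strand, before its innermost start.
EGR1: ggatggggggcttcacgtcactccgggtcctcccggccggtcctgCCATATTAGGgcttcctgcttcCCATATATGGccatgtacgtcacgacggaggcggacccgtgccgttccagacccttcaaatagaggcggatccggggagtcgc
EGR2: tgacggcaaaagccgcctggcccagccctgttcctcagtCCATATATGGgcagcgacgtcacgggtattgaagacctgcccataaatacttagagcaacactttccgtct
The EGR1 window held 2 CArG boxes, from -105 to -96 and from -83 to -74, and the EGR2 window held 1, from -71 to -62, identical in letters to the inner box of EGR1. A CArG box was present in 2 of the 11 windows of these genes and in 1.16% of all 35116 RefSeq windows. Sequence outside the windows was not searched, so a gene without a match here may hold a CArG box elsewhere.

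Other elements were searched for in the same 11 windows. The half-site of the cyclic AMP response element, TGACG, occurred in 7 of the 11 windows, 1 for each of EGR1, EGR2, FOS, FOSB, JUN, JUNB and IER2, against 21.2% of all windows. In FOS and FOSB it lay at similar places, from -64 to -60 and from -60 to -56. The full element TGACGTCA, which contains the half-site, was in none of the 11 windows and in 1.65% of all windows. The AP-1 site TGACTCA and the EGR site GCGGGGGCG were also in none, against 4.2% and 4.72% of all windows. The letters TATAAA occurred in 4 windows, among them FOS at -33, FOSB at -30 and JUNB at -31, against 10.7% of all windows. These matches describe letters and not bound sites, and their bearing on the levels was not tested.

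FOS, the founding AP-1 subunit, gave 36.6, 34.6 and 33.5 CPM in H23 and 1.16, 1.08 and 0.948 CPM in A549. The libraries of each line lay close together and the lines were far apart. The fold was 32.7 in favour of H23 (log2 -5.03 ± 0.13, edgeR adjusted p = 2.74e-07). FOSB, a close relative of FOS, had 2.27, 2.77 and 2.68 CPM in H23 and 0.0831, 0.24 and 0.517 CPM in A549, where it rested on 2, 6 and 12 counts. All H23 libraries were above the A549 libraries, which differed widely among themselves (log2 -3.19 ± 0.44, edgeR adjusted p = 0.00048, for a gene that entered the test through H23 alone).

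FOSL1 encodes FRA1, a FOS-family protein without the strong activation domain of FOS that is often raised in carcinomas. It gave 59.5, 44.5 and 40.8 CPM in H23 and 9.48, 6.23 and 7.67 CPM in A549. Its log2 fold was -2.63 ± 0.21 (edgeR adjusted p = 3.3e-05). In both lines replicate 1 had the highest level, and the lines did not overlap. FOSL2, which encodes FRA2 and is not an immediate early factor of this set, went the other way, with 32.3, 58.7 and 60.1 CPM in the H23 libraries and 94.8, 90.7 and 96.3 CPM in the A549 libraries. The lines did not overlap, and its log2 fold was 0.90 ± 0.23 (edgeR adjusted p = 0.00933). On log2(TPM + 1) that fold was 0.38 and did not pass (limma adjusted p = 0.205).

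The make-up of the FOS family was measured as the share of each member in the family's summed TPM. FOSL1 and FOS together led in H23, with FOSL1 at 61%, 48.1% and 44.8% and FOS at 26.1%, 26.9% and 28.0% in replicates 1, 2 and 3. In A549 FOSL1 held 20.2%, 14.4% and 16.2% and FOS 1.85%, 1.93% and 1.55%. FOSL2 held 12%, 23.8% and 26.1% of the family in H23 and 77.9%, 83.5% and 81.8% in A549. None of these 3 shares overlapped between the lines, and each gave an exact two-sided permutation p of 0.1, the smallest that 3 libraries against 3 allow, so no share could pass 0.05. From CPM, which is not corrected for length, the mean shares of FOSL1, FOS and FOSL2 were 35.7%, 25.7% and 36.8% in H23 and 7.53%, 1.03% and 91.2% in A549, so that FOSL2 came level with FOSL1 in H23. The summed TPM of the family was 97.2 to 104 in H23 and 29.5 to 34.2 in A549, where short RNA genes lower TPM.

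**Figure D2:**
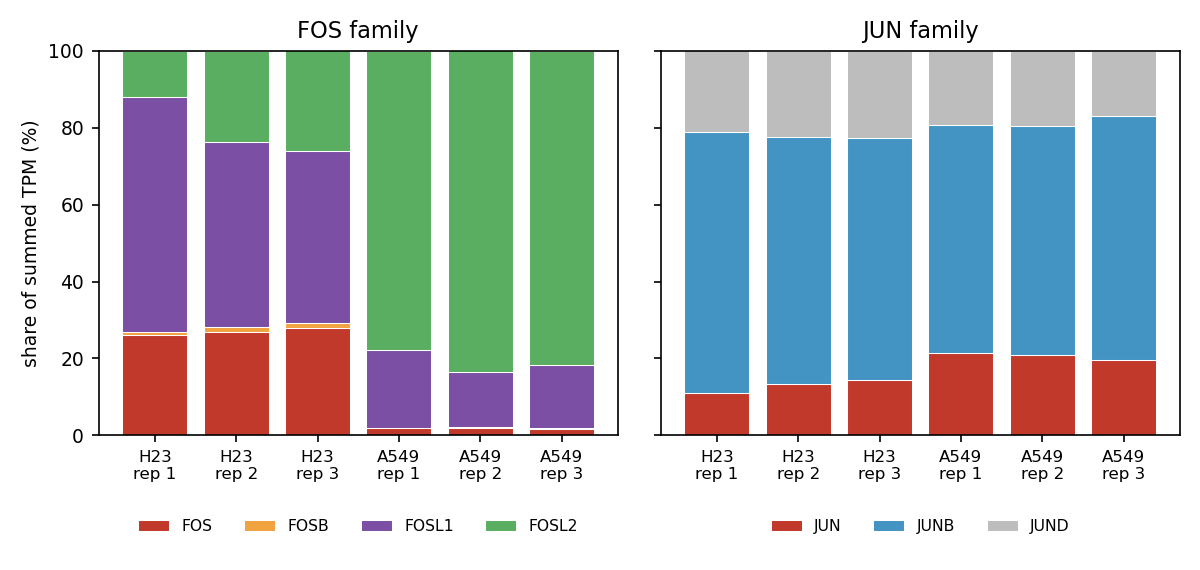
Share of each gene in the summed TPM (%) of the FOS family and of the JUN family, for each of the 6 libraries. FOSL2 makes up 77.9% to 83.5% of the FOS family in A549 and 12% to 26.1% in H23, while JUNB leads the JUN family in every library.

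The JUN family differed far less. JUN, the AP-1 subunit that can pair with itself and with FOS proteins, gave 30.2, 44.5 and 49.1 CPM in H23 and 65.9, 65.9 and 66.4 CPM in A549. The A549 libraries were nearly equal and all above the H23 libraries, of which replicate 1 was lowest (log2 0.68 ± 0.18, edgeR adjusted p = 0.0101). On the TPM scale JUN overlapped, at 14.1, 22.7 and 25.1 in H23 and 22.0, 21.7 and 23.4 in A549, and its log2 fold of 0.15 did not pass (limma adjusted p = 0.516). In that fit, which filtered on TPM and tested 13483 genes, the median of all genes was -0.48 in place of -0.03, and 31.6% of calls were higher in A549 in place of 48.7%. Relative to the median of its fit JUN stood at 0.71 on counts and 0.63 on TPM. With no filter the medians were -0.07 on counts and -0.12 on TPM, and JUN on TPM was again at 0.15.

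JUNB, a JUN-family protein that tempers JUN activity, gave 96.8, 113 and 111 CPM in H23 and 95.6, 98.4 and 111 CPM in A549. The libraries overlapped and the log2 fold of -0.07 ± 0.10 did not pass (edgeR adjusted p = 0.541). Its sign depended on the treatment of the counts, from -0.61 on log2(TPM + 1) (limma adjusted p = 0.00345) to 0.47 with a trend with GC content removed (edgeR adjusted p = 0.000477). Without H23 replicate 1 it passed at -0.14 (edgeR adjusted p = 0.0186). Over all its alternatives the adjusted p ran from 0.000477 to 0.954. JUND, the family member known for constant expression, gave 32.7, 43.1 and 44.1 CPM in H23 and 33.8, 35.3 and 32.6 CPM in A549 and did not pass either (log2 -0.24 ± 0.13, edgeR adjusted p = 0.136). JUND passed as higher in H23 without H23 replicate 1 and with upper quartile factors, both at -0.37, and on TPM at -0.77 to -0.48. With the GC trend removed it passed as higher in A549, at 0.48. JUNB held 62.7% to 67.9% of the family's summed TPM in H23 and 59.4% to 63.3% in A549 (exact two-sided permutation p = 0.2). JUN held 11.1% to 14.5% in H23 and 19.7% to 21.3% in A549 (exact two-sided permutation p = 0.1).

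IER2, a short nuclear protein with roles in cell motility and cell cycle genes, gave 144, 124 and 133 CPM in H23 and 51.5, 53.6 and 55.1 CPM in A549. The H23 libraries were all above the A549 libraries, with a fold of 2.50 (log2 -1.32 ± 0.09, edgeR adjusted p = 1.31e-05). ATF3, a bZIP repressor and activator induced by amino acid, endoplasmic reticulum and genotoxic stress, gave 22.2, 24.3 and 27.4 CPM in H23 and 3.16, 3.40 and 2.63 CPM in A549. It was 8.03-fold higher in H23 without overlap (log2 -3.01 ± 0.15, edgeR adjusted p = 3.55e-06).

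**Figure D3:**
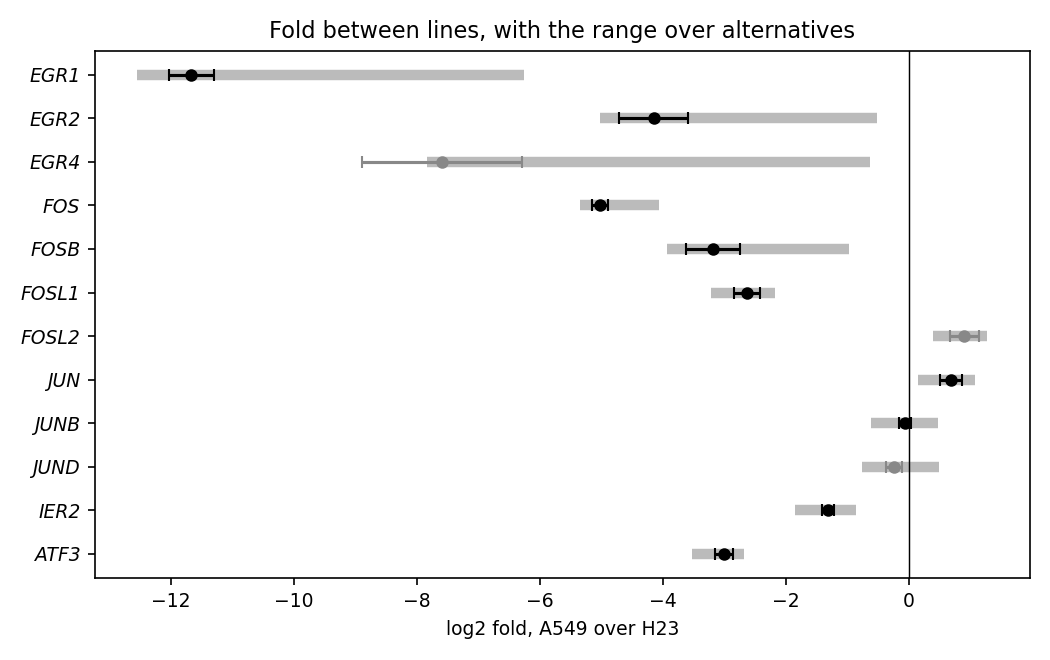
Log2 fold of A549 over H23 for 9 immediate early factors (black) and for EGR4, FOSL2 and JUND (grey). Points are the edgeR values, whiskers their approximate standard errors, and grey bars the range over the alternative settings, which crosses 0 for JUNB and JUND; EGR3 was too low to be tested.

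JUN and ATF3 share a promoter element, the 8 letters TGACATCA, known from JUN as the site bound by JUN and ATF2. Any bearing of the element on their levels was not tested. The sequences below are 30 bases from the RefSeq windows, with that element in capitals, for JUN at chr1:58784096-58784125, minus strand, and for ATF3 at chr1:212565272-212565301, plus strand, both on GRCh38.p14.
JUN: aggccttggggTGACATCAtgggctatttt
ATF3: tcacctatgataTGACATCAtatggccact
The element lay from -67 to -60 in JUN and from -123 to -116 in the window of the outermost ATF3 start. It occurred in 2 of the 11 windows and in 2.37% of all windows.

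The transcript of ATF3 with the outermost start was prominent in H23. In the annotation of GENCODE on GRCh38 the transcript NM_001030287 starts at base 212565334 of chromosome 1, and NM_001674 starts 43336 bases further on. RefSeq places the outermost start somewhat further downstream than GENCODE does, and the distances of the promoter element count from RefSeq's. NM_001030287 held 64.2%, 49.2% and 59.3% of ATF3 transcripts in H23 and 32.9%, 0% and 13.5% in A549, as estimated by RSEM, with no overlap. NM_001674 held 22.2%, 34.2% and 35.6% in H23 and 47.6%, 59.6% and 79.9% in A549, again with no overlap. The A549 shares rest on 76, 85 and 61 counts for the whole gene. The transcripts share most of their sequence, and the usage test did not pass (edgeR's diffSpliceDGE, adjusted p = 0.152), where 25.9% of 7539 genes did. It passed with a filter of at least 10 counts per transcript (adjusted p = 0.0274), and without A549 replicate 1 (0.0489) or A549 replicate 3 (0.0252). Over all alternatives the values lay between 0.0252 and 0.166.

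FOSL1 showed a similar uncertainty. Its main coding transcript NM_005438 held 37.0%, 49.2% and 68.6% in H23 and 58.9%, 73.5% and 76.8% in A549, and the lines overlapped. The non-coding form NR_125339 held 52.8%, 39.2% and 14.2% in H23, a wider range than its 24.8%, 0% and 0% in A549. The usage test did not pass (diffSpliceDGE adjusted p = 0.4), although it did without A549 replicate 1 (0.00346). The 3 coding forms NM_001300844, NM_001300857 and NM_001300855 share a start 107 bases inside that of NM_005438 on GRCh38. Of the FOSB forms, all H23 counts went to NM_006732, of 3776 bases, and none to the shorter NM_001114171, of 3668 bases. In A549 the 2 counts of replicate 1 went to NM_001114171, and the 6 and 12 counts of replicates 2 and 3 to NM_006732.

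**Figure D4:**
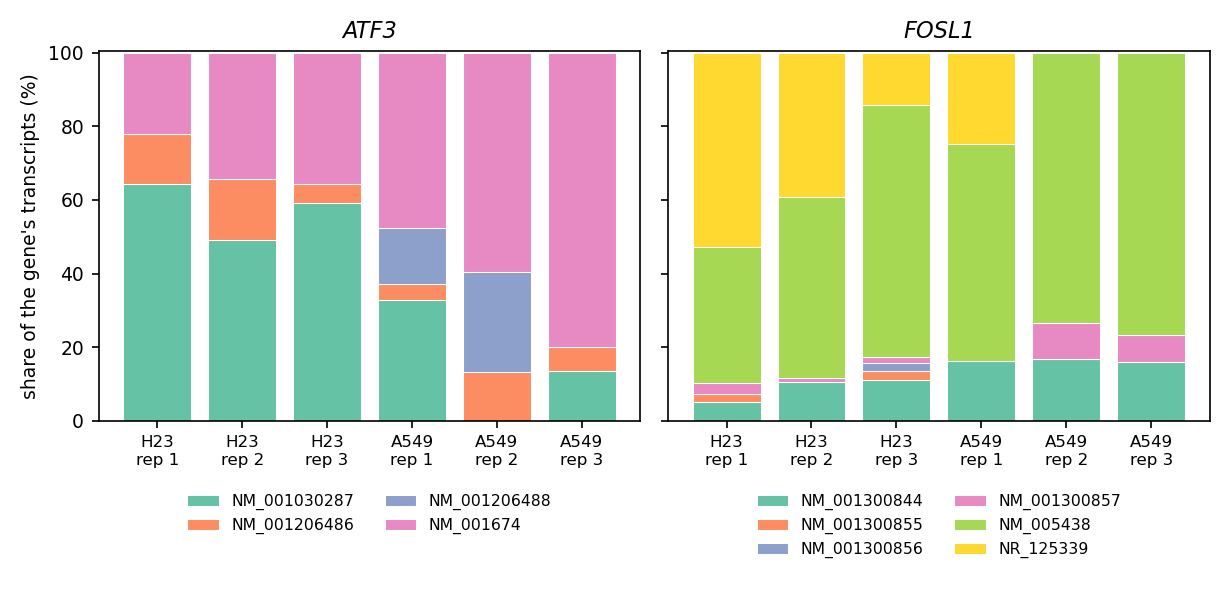
Share of each RefSeq transcript in its gene's transcripts (%), as deposited, for ATF3 and FOSL1 in the 6 libraries. NM_001030287 of ATF3 holds 49.2% to 64.2% in H23 and at most 32.9% in A549, and the FOSL1 shares vary widely among the H23 libraries.

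The order of the levels within a line, compared per length as TPM, also changed. In H23 IER2 and JUNB led at 111 ± 4.39 and 102 ± 13.2 TPM and overlapped. JUNB in turn overlapped with EGR1 at 77.5 ± 11 TPM. FOSL1 at 52.2 ± 10.1 and FOS at 27.4 ± 0.482 TPM followed, each apart from its neighbours, then ATF3 at 21.3 ± 3.10 and JUN at 20.6 ± 5.79 TPM, which overlapped. FOSB, EGR2 and EGR3 were last at 1.12 ± 0.169, 0.467 ± 0.104 and 0.13 ± 0.0608 TPM.

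In A549 JUNB led alone at 66.3 ± 7.80 TPM, followed by IER2 at 30.4 ± 1.99 and JUN at 22.3 ± 0.903 TPM. FOSL1 at 5.51 ± 1.26, ATF3 at 1.74 ± 0.163 and FOS at 0.573 ± 0.0451 TPM were each separate from their neighbours. FOSB, EGR2 and EGR1 overlapped at under 0.2 TPM in each library, and EGR3 was listed at 0. JUNB, IER2 and JUN made up 92.4% to 94.4% of the summed TPM of the 10 genes in A549 and 51.6% to 59.4% in H23. That sum was 410 to 418 TPM in H23 and 121 to 139 TPM in A549, where short RNA genes lower TPM. In CPM, which serves to compare the lines, the sum was 518 to 574 in H23 and 227 to 245 in A549.

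Between cultures of H23 the factors did not all move in the same direction, and replicate 1 was at an extreme for each of the 9. H23 replicate 1 was the highest of its line for EGR1, FOS, FOSL1 and IER2 and the lowest for EGR2, FOSB, JUN, JUNB and ATF3. This library also stood out beyond these factors. When it was dropped, edgeR called 88.6% of genes, against 73.5% when H23 replicate 2 was dropped and 73% for replicate 3. Whether the factors varied apart from this trait of 1 library was not tested. The SD of log2(CPM + 0.1) between H23 cultures ran from 0.06 for FOS to 0.37 for JUN, against a median of 0.23 over all tested genes. In A549 it ran from 0.01 for JUN to 0.88 for FOSB, against a median of 0.07, and the highest values, of FOSB, EGR1 and EGR2, were those of genes with 12 or fewer counts in each A549 library.

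Other immediate early genes and partners were read from lists chosen with earlier results of these data known. Over all tested genes, 77.2% were called and the median was -0.03. Of 18 other immediate early regulators, 11 were higher in H23, 3 higher in A549 and 4 did not pass, with a median log2 fold of -0.88. The orphan nuclear receptors NR4A1, NR4A2 and NR4A3 averaged 93.8 ± 10.2, 80.7 ± 14.3 and 18.4 ± 2.84 CPM in H23. In A549 they averaged 7.29 ± 0.699, 0.472 ± 0.152 and 0.366 ± 0.281 CPM. Their log2 folds were -3.68 ± 0.13, -7.41 ± 0.26 and -5.66 ± 0.37, and edgeR gave adjusted p of 1.02e-06, 9.52e-07 and 1.3e-05. NR4A2 and NR4A3 passed the filter on low counts through H23 alone and could hardly have failed to differ. The same holds below for DUSP2, ARC, RPS6KA2, CREB5, MMP1 and MMP10. The counts and medians of the lists are thus given as a description. IER5 and IER5L, relatives of IER2, differed in favour of A549 by 1.27 ± 0.09 and 1.90 ± 0.11 on the log2 scale. Without H23 replicate 1, where 88.6% of all tested genes passed, 13 were higher in H23 and 5 higher in A549. With the GC trend removed, 5 were higher in A549, as were 49.3% of all calls in that fit.

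Of 22 immediate early genes that encode no transcription factor, 13 were higher in H23 and 7 higher in A549, with a median of -0.61. DUSP2, a nuclear phosphatase of ERK, and ARC, a synaptic immediate early gene, had 95.7 ± 16.9 and 14.9 ± 0.460 CPM in H23. In A549 they were down to 0.292 ± 0.0830 and 0.111 ± 0.0481 CPM, log2 folds of -8.34 ± 0.24 and -7.02 ± 0.21. DUSP1, the phosphatase that restrains JNK and p38, was the reverse, with a mean of 10.5 ± 2.17 CPM for H23 against 226 ± 6.71 CPM for A549. Its log2 fold was 4.42 ± 0.17 (edgeR adjusted p = 1.4e-06). RHOB, a GTPase, and GEM, a GTP-binding protein, also stood higher in A549 (log2 2.86 ± 0.18 and 2.44 ± 0.14). These genes thus lay on both sides.

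Among 22 upstream factors and kinases 11 were higher in H23 and 9 higher in A549, with a median of -0.19. On log2(TPM + 1) 4 were higher in A549, and 5 with the GC trend removed. Over the whole table, the share of calls higher in A549 was 31.6% on log2(TPM + 1), 49.3% with the GC trend removed and 48.7% in the main fit. SRF averaged 95.5 ± 11.8 CPM in H23, above the 40.1 ± 1.38 CPM of A549, a log2 fold of -1.25 ± 0.11 (edgeR adjusted p = 5.53e-05). The ribosomal S6 kinase genes parted, RPS6KA2 at 7.28 ± 0.409 against 0.0549 ± 0.0217 CPM and RPS6KA3 at 35.0 ± 8.42 against 160 ± 4.50 CPM, H23 first. Of 14 tested AP-1 and bZIP partners 6 were higher in each line, with a median of -0.04. On log2(TPM + 1) 3 were higher in A549 and 7 in H23, a scale on which 54.9% of all tested genes were higher in H23, in place of 39.6%. ATF7, CREB5 and the stress factor DDIT3 had log2 folds of -2.87 ± 0.15, -6.92 ± 0.70 and -2.20 ± 0.15, while JDP2, a repressor of AP-1, and the small MAF gene MAFK had 3.05 ± 0.27 and 1.37 ± 0.15.

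The EGR corepressor genes went opposite ways. NAB2, itself an EGR target, averaged 130 ± 21.4 CPM in H23, against 17.0 ± 0.859 CPM for A549, and its log2 fold was -2.94 ± 0.15 (edgeR adjusted p = 3.83e-06). NAB1 averaged 42.8 ± 6.08 CPM in H23, against 92.9 ± 3.90 CPM for A549 (log2 1.12 ± 0.12, edgeR adjusted p = 0.000125). The EGR site searched above lay in a window each of NAB2 and SRF, from -62 to -54 and from -49 to -41. The same SRF window held CArG boxes from -30 to -21 and from -10 to -1. Any bearing of these sites on the levels was not tested. The NAB2 site is shown in capitals, at chr12:57089041-57089070, plus strand, on GRCh38.p14.
NAB2: ctgtgcgtcctGCGGGGGCGgaggcgcgga

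Genes described as targets of these factors lay on both sides of 0. Of 17 tested AP-1 targets 7 were higher in each line, with a median of -0.03. The collagenase gene MMP1 averaged 7.61 ± 2.53 CPM in H23, where A549 had 0 counts, so H23 was at least 181-fold higher. The stromelysin MMP10 and the gelatinase MMP9 also stood higher in H23 (log2 -2.55 ± 0.28 and -1.88 ± 0.25). SPP1, which encodes osteopontin, stood higher in A549 by a log2 difference of 8.23 ± 0.14 (edgeR adjusted p = 1.11e-07). Of 11 tested EGR1 targets, 4 were higher in H23 and 6 higher in A549, with a median of 0.74. On log2(TPM + 1) 3 were higher in A549 and 4 in H23. The adhesion molecule gene ICAM1 averaged 290 ± 6.59 CPM in H23, above the 3.49 ± 0.560 CPM of A549. The growth factor genes FGF2, PDGFB and PDGFA rose in A549 by log2 differences of 4.67 ± 0.29, 2.36 ± 0.20 and 1.75 ± 0.10.

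**Figure D5:**
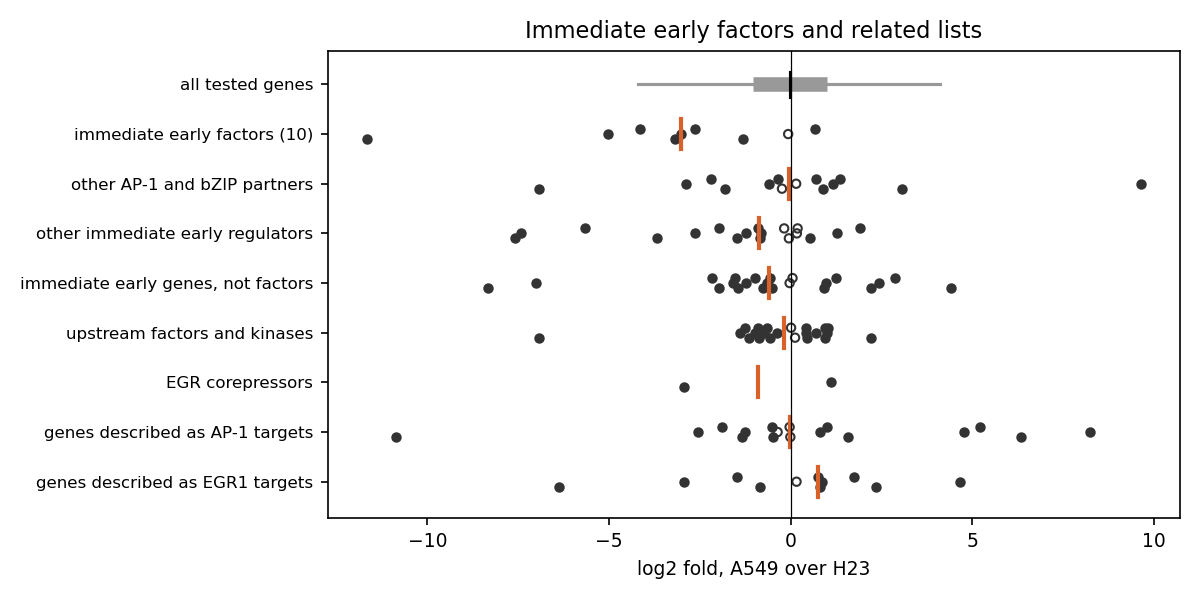
Log2 fold of A549 over H23, as fitted by edgeR, for the tested genes of each list (a gene with 0 counts in a line is drawn at its fitted value, which is no bound); filled points passed an edgeR adjusted p of 0.05, open points did not, and orange bars are list medians. The top row gives all tested genes as the 5th to 95th percentile (line, -4.21 to 4.12), the middle part from the 25th to the 75th (thick bar) and the median (tick); the 9 tested factors have a median of -3.01 and the target lists lie on both sides of 0.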

How the data were processed

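RNA-seq of 3 H23 and 3 A549 cultures came as 1 gene table and 1 transcript table per library, prepared with a strand-keeping kit after removal of ribosomal RNA, per the labels' protocols. The submitters' processing notes name STAR 2.6.0c, RSEM 1.3.0 and hg19. Options, annotation and strand setting are not given in the sources used here. Per the file headers, the tables hold expected counts, which the authors estimated per gene, TPM, which the authors scaled for length and depth, and the percent of a gene's transcripts that each transcript takes, as deposited. Expected counts were rounded to whole numbers for edgeR 4.0.16 under R 4.3.3 (filterByExpr, TMM, robust quasi-likelihood F test, Benjamini-Hochberg adjustment over all 15426 tested genes, threshold 0.05). Standard errors are approximate, the size of the log2 fold divided by the root of F. Values are mean ± SD over 3 libraries unless given per library. Transcript usage was tested with diffSpliceDGE. Alternatives used DESeq2 1.42.0, limma 3.58.1 on log2(TPM + 1) and log2(TPM + 0.1), other scalings and filters, trends with length or GC content removed, a replicate block, and each library left out. Both tests were first run on simulated counts.

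The 10 genes and the related lists were chosen with earlier results of these data known. Beside FOSL2, JUND, EGR4, NAB1, NAB2 and SRF, the related genes named were drawn from up to 3 per list and direction with the largest fold, past the test, without overlap and averaging 1 TPM or more where they were higher. IL8 was read as CXCL8. Promoters and chromosomes are RefSeq's on GRCh38.p14. Where a line had 0 counts, folds are bounds against 3 counts over its libraries.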

Additional observations from a re-analysis of the deposited data

How the results depend on the processing

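Of 165 fold values of the 9 tested factors under alternative settings, 154 kept their direction and their side of the threshold, and the exceptions were all of JUN or JUNB. JUN did not pass on log2(TPM + 1), with or without a filter, at 0.15, or on log2(TPM + 0.1) at 0.16, and stood at 0.42 on TPM rescaled without genes under 200 bases, a setting chosen after seeing the data (limma adjusted p = 0.092). JUNB passed as higher in H23 on these scales, at -0.61, -0.62 and -0.34, and without H23 replicate 1 at -0.14, and turned to higher in A549 with a length trend (0.32) or GC trend (0.47) removed; the cause was not tested. Over the fits that left out each library JUNB ran from -0.14 to -0.01. JUND turned to 0.09 and 0.48 with the length and the GC trend removed, and CREB1, at 1.02, to -0.31 with the GC trend removed. Upper quartile factors moved the median of all genes to -0.16. With the replicate number as a block 8 of the 9 factors were called, as without it, and 11691 genes against 11910. The numbers did not pair the libraries, with correlations of deviations from the line means of 0.03, -0.05 and 0.07 for equal numbers. Usage adjusted p for ATF3 was 0.0274 with at least 10 counts per transcript and 0.0252 to 0.0833 over left-out libraries, and for FOSL1 0.00346 to 0.72. EGR2, EGR3, FOSB and all EGR values in A549 rest on few counts, and depth limits them.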
